A study of Homo sapiens with 4 samples.

Results

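The hexosamine pathway turns a small share of the glucose that a cell takes up into UDP-GlcNAc, and 2 enzymes then put that sugar on nuclear and cytosolic proteins and take it off again. The genes described here are the enzymes of this route: GFPT1 and GFPT2, GNPNAT1, PGM3, UAP1 and UAP1L1 for synthesis, OGT and OGA for O-GlcNAc cycling, and NAGK and GNPDA1 for salvage and return of amino sugars. They were chosen by gene symbol, and every probe set that the array annotation pairs with 1 of them alone was taken. Of the 10 genes, 8 had such a probe set, with 20 probe sets in all among 54613 probe sets that are not controls. GFPT2 and PGM3 had none and were not analysed here.

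Total RNA came from HEK293, an established human embryonic kidney cell line transformed with adenovirus DNA. High glucose cells had been grown in DMEM with 450 mg/dl glucose and low glucose cells in DMEM with 100 mg/dl, in both cases with serum and for 7 days. There were 2 arrays per group, named by the labels as biological replicates without a word on how the cultures were kept apart, so p-values measure the spread between these samples, which may be technical. The question put to these genes is whether their transcript levels differ with the glucose content of the medium.

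As background, glutamine:fructose-6-phosphate amidotransferase (GFPT1, GFPT2) makes glucosamine-6-phosphate from a glycolytic intermediate and glutamine and is regarded as the rate-limiting step. GNPNAT1 acetylates the product with acetyl-CoA, PGM3 moves its phosphate, and UAP1 joins it to UTP to give UDP-GlcNAc. OGT transfers GlcNAc from this donor to serine and threonine residues, and OGA removes it, so the modification is often described as a sensor of nutrient supply. Transcripts of OGT and of OGA are both known to exist in forms that retain an intron, and the splicing of both is known to respond to the level of O-GlcNAc.

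The RefSeq promoter windows of 4 genes are shown first, because these genes lie in 1 pathway and moved in opposite directions: GFPT1 was lower in high glucose, and GNPNAT1, UAP1 and OGA were higher. Each window is of build GRCh38.p14 and runs from 250 bases before to 50 bases after an annotated start, 5′ to 3′ on the strand of the gene. Capitals mark GGGCGG (a GC box), CCAAT and TGACGTG (the core of the element bound by XBP1 and ATF6), each on either strand. The GFPT1 window is chr2:69387178-69387477 (minus strand), that of GNPNAT1 chr14:52791558-52791857 (minus), that of UAP1 chr1:162561281-162561580 (plus) and that of OGA chr10:101818395-101818694 (minus).
GFPT1: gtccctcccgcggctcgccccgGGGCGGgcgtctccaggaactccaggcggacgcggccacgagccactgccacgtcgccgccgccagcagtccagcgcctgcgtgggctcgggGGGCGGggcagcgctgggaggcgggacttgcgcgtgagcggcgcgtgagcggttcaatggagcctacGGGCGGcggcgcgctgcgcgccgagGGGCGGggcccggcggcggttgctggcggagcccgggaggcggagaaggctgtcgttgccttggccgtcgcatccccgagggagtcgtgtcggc
GNPNAT1: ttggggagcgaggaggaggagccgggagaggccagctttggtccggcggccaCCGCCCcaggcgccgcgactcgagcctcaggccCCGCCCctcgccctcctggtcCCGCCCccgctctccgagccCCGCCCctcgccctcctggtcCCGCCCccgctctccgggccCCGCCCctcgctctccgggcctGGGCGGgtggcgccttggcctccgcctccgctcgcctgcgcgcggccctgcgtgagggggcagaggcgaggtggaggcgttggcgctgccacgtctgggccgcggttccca
UAP1: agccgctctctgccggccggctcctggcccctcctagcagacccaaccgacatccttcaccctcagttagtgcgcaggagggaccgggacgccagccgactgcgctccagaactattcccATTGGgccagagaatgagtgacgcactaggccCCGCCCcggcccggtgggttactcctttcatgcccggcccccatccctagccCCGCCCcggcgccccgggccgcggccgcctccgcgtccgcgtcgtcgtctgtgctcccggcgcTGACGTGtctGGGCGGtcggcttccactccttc
OGA: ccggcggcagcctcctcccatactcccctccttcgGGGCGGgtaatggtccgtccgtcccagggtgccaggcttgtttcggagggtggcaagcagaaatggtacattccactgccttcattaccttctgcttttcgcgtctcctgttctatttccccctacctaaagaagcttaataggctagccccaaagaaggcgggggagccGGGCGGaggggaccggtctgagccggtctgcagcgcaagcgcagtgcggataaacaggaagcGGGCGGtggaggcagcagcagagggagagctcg

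GC boxes were present in all 4 windows, with 4 matches in GFPT1, 7 in GNPNAT1, 3 in UAP1 and 3 in OGA. GGGCGG occurred in 44.9% of the 35093 promoter windows of the same length. The content of G and C was 78% in GFPT1, 79.3% in GNPNAT1, 70.7% in UAP1 and 61.7% in OGA. Its median over all windows was 58.7%, and the GC box is made of these letters alone. TGACGTG occurred in the UAP1 window 18 bases after the start, and in 1.97% of all windows. Of the 3 UAP1 windows in the table, of which only neighbouring ones overlap, 2 held this same match. Windows were given for 7 of the 8 measured genes, 10 windows in all, and UAP1L1 had no entry. Among these 10 windows TGACGTG was found in no gene but UAP1, and CACGTG, the E-box bound by MondoA, ChREBP and MYC family factors, in GNPDA1 alone, 31 bases before the start, against 7.26% of all windows. Both motifs hold the letters ACGTG, but the base before them differs, so a site cannot match both through these letters. TGATGNAA, the element bound by ATF4 (3.62% of all windows), and the full ER stress element of CCAAT and CCACG with 9 bases between (0.0769% of all windows) matched none of the 10. CCAAT was found in UAP1 and in NAGK, and in 34.6% of all windows. These matches describe letters in short windows and say nothing of binding.

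Signals are intensities on a linear scale, already scaled by the authors, and 32.9, the median over probe sets of the mean signal, served as the filter for dim probe sets. Of the 20 probe sets, 17 passed it. Tested with limma at an adjusted p under 0.05, 7 of the 17 rose and 8 fell in high glucose, while 23.1% and 27.2% of the 27307 measured probe sets were higher and lower. The arrays of the groups did not overlap for 16 of the 17, against 76.8% of all measured probe sets. At 1 probe set per gene, the brightest, 3 of the 8 genes were higher (GNPNAT1, UAP1, OGA), 4 lower (GFPT1, UAP1L1, OGT, NAGK) and 1 not called (GNPDA1), with a median log2 difference of -0.26. Over the 12242 measured genes, 23.8% were higher and 32.6% lower, and the median was -0.10. Calls were common across the array, and GFPT1, OGT and OGA gave 4, 5 and 3 of the 17 probe sets. The genes were also chosen with earlier results known, so these counts are a description and do not set the enzymes apart. The values of each gene follow.

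**Figure D1:**
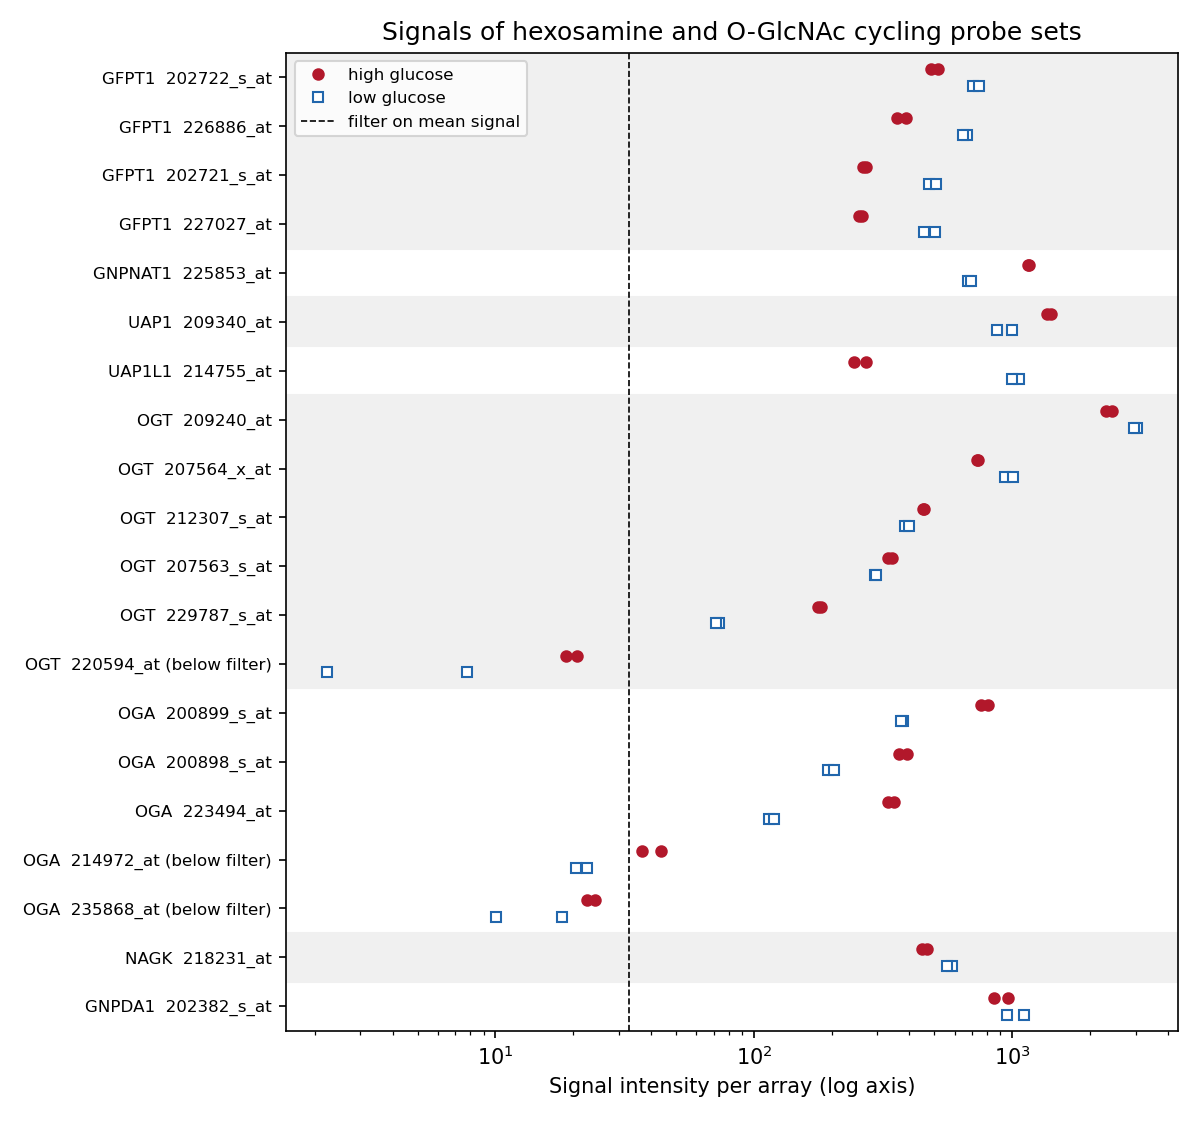
Signal intensity (x axis, log scale) of each of the 20 probe sets (y axis, by gene) on each array, with high glucose as filled circles above low glucose as open squares. The dashed line is the filter at 32.9, which 3 probe sets fall below, and GNPDA1 is the only probe set right of the line whose groups overlap.

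The arrays also differed in controls, which bears on every rise below. Control probe sets for bacterial poly-A RNAs, which are meant to be spiked into the RNA ahead of labelling, gave more signal in high glucose in 24 of 24. Several of these read the same RNA, so they are not 24 separate observations. Their median difference was 1.94 on the log2 scale (3.84-fold). Their median signals were 151 and 139 in high glucose, against 38.1 and 44.1 in low glucose. Those low glucose signals lay near the median signal of all probe sets on the same arrays, 38.7 and 36.7. No measured probe set of these genes rose by as much, and only 137 of all 27307 measured probe sets rose by more. Set against these control probe sets, every rise called below would be a fall. Whether they are a sound reference, and the part of their difference in these results, was not tested. The 6 control probe sets for ribosomal RNA had median signals of 202 and 294 in high glucose, against 67.4 and 76.3 in low glucose, a median difference of 1.73 on the log2 scale (3.31-fold). The 18 hybridisation control probe sets had a median of 486 on high glucose replicate 1 and 875 on high glucose replicate 2, against 869 and 891 in low glucose, so the first of these arrays stood apart. Without it, 6 probe sets of the enzymes were called higher and 8 lower. The part of the ribosomal RNA difference in the results was not tested. The median signal lay between 33.3 and 38.7 over the 4 arrays, and centring each array on it moved the median log2 difference of all measured probe sets to 0.11, against -0.06 as deposited. Differences within about that size have no settled direction. Of the epithelial and cytoskeletal markers, all 3 had signals of 2845 or more on every array and all 3 moved with glucose: the keratins KRT8 and KRT18 were higher in high glucose, by 1.06 and 1.07 log2 units, and VIM, the gene of vimentin, differed by -0.91. Of the neuronal markers, NEFL had 1354 and 1179 in high glucose against 1442 and 1352 in low glucose, while INA and NEFM lay below the filter. Fibroblast markers COL1A2, DCN and LUM and blood markers PTPRC and CD3E lay below it too, and COL1A1 had 319 and 313 in high glucose against 228 and 204 in low glucose. The part of these marker differences in the results was not tested.

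At the first step of the pathway, the GFPT1 transcript was lower in high glucose, while GFPT2 was not analysed here. GFPT1 had 516 and 486 signal units in high glucose, against 706 and 745 in low glucose, in its brightest probe set (202722_s_at). The groups were well apart, and the log2 difference was -0.53 ± 0.07 (SE, adjusted p = 7.6e-04), a 1.45-fold lower signal. The other GFPT1 probe sets moved the same way and by more. Probe set 226886_at had 388 and 358 in high glucose, against 666 and 645 in low glucose, and fell 1.76-fold. Probe set 202721_s_at had 265 and 272 in high glucose, against 477 and 507 in low glucose, and fell 1.83-fold. For 227027_at the values were 261 and 255 in high glucose, against 504 and 456 in low glucose, a 1.86-fold fall. All 4 probe sets of GFPT1 were therefore called lower, with log2 differences between -0.53 and -0.89, and each of the 4 was called under every alternative of normalization, filter and left-out array run here. Of all measured probe sets, 9.66% fell by more than the steepest of them and 21.7% by more than the shallowest.

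GNPNAT1, the acetyltransferase of the next step, was higher in high glucose. Its 1 probe set had 1157 and 1155 in high glucose, against 673 and 695 in low glucose. These pairs lay far closer within than between groups, and the rise was 0.76 ± 0.06 log2 units, or 1.69-fold (adjusted p = 7.7e-05). Within each array, the ratio of GNPNAT1 to the brightest GFPT1 probe set was 2.45-fold larger in high than in low glucose. A ratio within an array is free of that array's scaling, and this one was chosen after the values had been seen and is given without a test.

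The enzyme of the last step and its paralogue went opposite ways. UAP1, the UDP-GlcNAc pyrophosphorylase, had 1411 and 1362 in high glucose, against 873 and 999 in low glucose. It rose by 0.57 ± 0.08 log2 units, 1.49-fold (adjusted p = 8.7e-04), with no overlap between the groups though the low glucose arrays were spread the more. UAP1L1, a paralogue named for its sequence likeness to UAP1, had 244 and 272 in high glucose, against 1061 and 997 in low glucose. This 3.99-fold fall (-2.0 ± 0.08 log2 units, adjusted p = 6.3e-06) was the largest difference among the 17 measured probe sets, and 0.864% of all measured probe sets fell by more.

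The log2 ratio of UAP1L1 to UAP1 within an array was -2.53 and -2.32 in high glucose, against 0.28 and -0.0020 in low glucose. The difference was -2.57 log2 units (exact permutation test, two-sided, p = 0.333, the smallest p that 2 arrays against 2 allow). Both genes rest on 1 probe set each, so no second probe set bears on either value. The ratio of UAP1 to the brightest GFPT1 probe set was 2.15-fold larger in high glucose, again as a description.

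**Figure D2:**
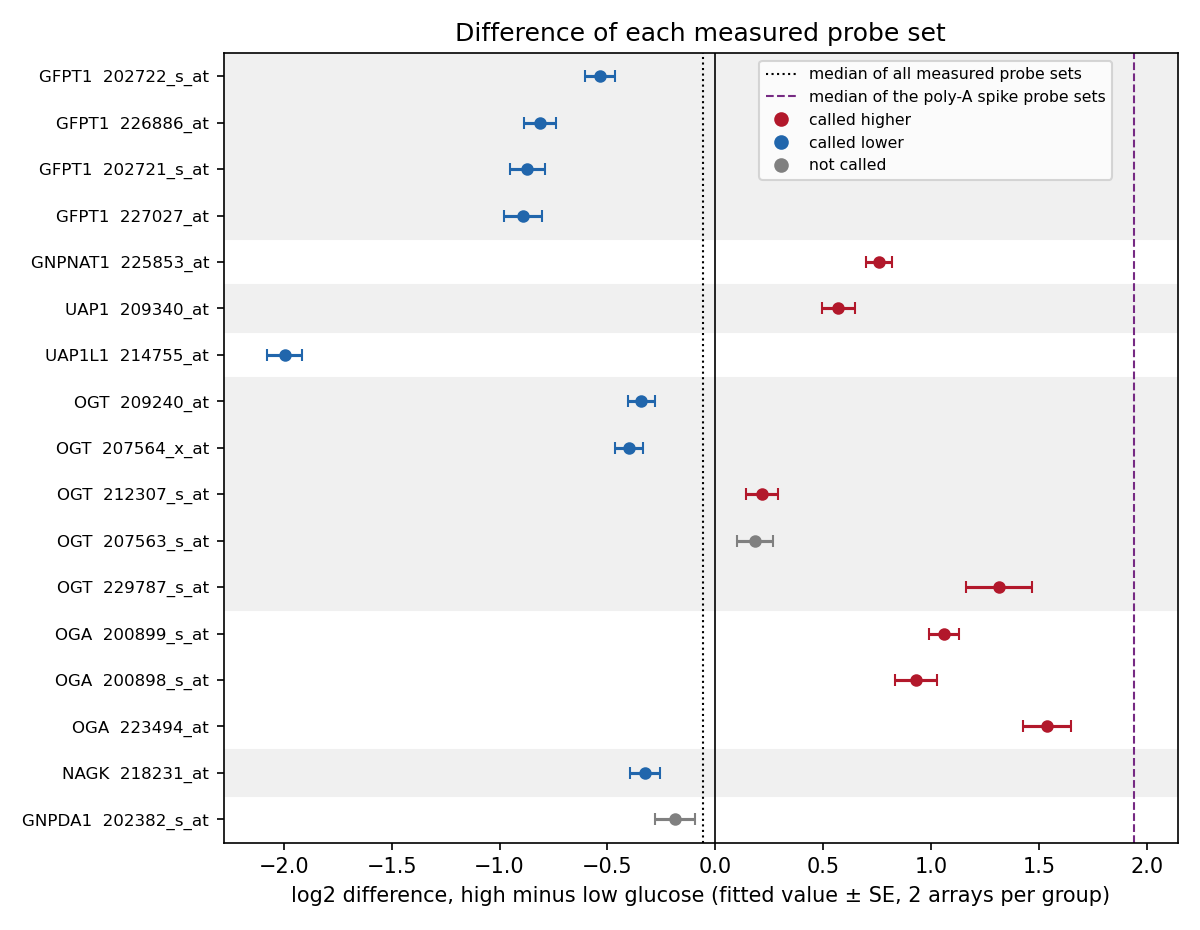
Fitted log2 difference (x axis, high minus low glucose) with its standard error for the 17 measured probe sets (y axis, by gene), 2 arrays per group. GFPT1, UAP1L1, NAGK and GNPDA1 (not called) lie left of 0, GNPNAT1, UAP1 and OGA right of 0, and OGT lies on both sides. All lie left of the dashed line at 1.94, the median of the poly-A spike probe sets.

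OGA, the hydrolase that removes O-GlcNAc, was higher in high glucose in each of its measured probe sets. In the brightest (200899_s_at) it had 805 and 760 in high glucose, against 378 and 372 in low glucose, a rise of 1.06 ± 0.07 log2 units or 2.08-fold (adjusted p = 3.7e-05). Probe set 200898_s_at had 392 and 364 in high glucose, against 193 and 204 in low glucose, and rose 1.90-fold. Probe set 223494_at had 332 and 349 in high glucose, against 115 and 120 in low glucose, and rose 2.91-fold (1.54 ± 0.11 log2 units). The groups lay far apart in all 3, and 1.29% of all measured probe sets rose by more than the steepest.

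The remaining OGA probe sets were below the filter and carry no call. Probe set 214972_at had 43.7 and 37.1 in high glucose, against 22.7 and 20.5 in low glucose. Probe set 235868_at had 24.3 and 22.6 in high glucose, against 10.0 and 18.1 in low glucose. In both, the high glucose arrays lay above the low glucose arrays. Among the probe sets that passed the filter, groups did not overlap, in either direction, for 76.8%. The share among dim probe sets is not given here, so this order of the arrays alone says little.

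OGT, the transferase that adds O-GlcNAc, gave no single direction. Its brightest probe set (209240_at) had 2424 and 2298 in high glucose, against 3040 and 2948 in low glucose, and fell by 0.34 ± 0.06 log2 units, 1.27-fold (adjusted p = 0.0032). Probe set 207564_x_at, of the class in which some probes match other sequences too, had 738 and 733 in high glucose, against 935 and 1007 in low glucose. It fell 1.32-fold (adjusted p = 0.0020). After median centring neither passed, at -0.17 (adjusted p = 0.12) and -0.23 (adjusted p = 0.054), and the direction stayed.

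The other OGT probe sets were higher in high glucose. Probe set 229787_s_at had 182 and 177 in high glucose, against 73.3 and 71.2 in low glucose, and rose 2.49-fold (1.31 ± 0.15 log2 units, adjusted p = 4.3e-04). It passed under every alternative. Probe set 212307_s_at had 451 and 456 in high glucose, against 384 and 397 in low glucose. Its rise of 0.22 ± 0.07 log2 units passed narrowly (adjusted p = 0.043) and no longer passed without any one of the 4 arrays, with adjusted p between 0.065 and 0.16. Probe set 207563_s_at had 330 and 344 in high glucose, against 296 and 298 in low glucose, at 0.18 ± 0.08 log2 units without passing (adjusted p = 0.11). After median centring it passed (0.35, adjusted p = 0.015).

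The dim probe set 220594_at, below the filter, had 18.8 and 20.6 in high glucose, against 2.23 and 7.73 in low glucose. Of the 5 measured OGT probe sets, 2 were therefore called higher, 2 lower and 1 not. The ratio of 229787_s_at to 209240_at within an array was 3.15-fold larger in high than in low glucose. Calls in both directions were also found for 122 of the 420 genes with 5 or more measured probe sets (29.0%). The mean over the 5 OGT probe sets stood at 0.19 ± 0.06 log2 units (adjusted p = 0.027 over genes), opposite to the brightest. The sources used here do not place these probe sets on exons, introns or untranslated regions, so they cannot be assigned to transcript forms.

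The balance of the cycling enzymes was read as the ratio of OGA to OGT within each array. With the brightest probe set of each gene, the log2 ratio was -1.59 and -1.60 in high glucose, against -3.01 and -2.99 in low glucose. It was 1.40 log2 units or 2.64-fold larger in high glucose (exact permutation test, two-sided, p = 0.333, the smallest p possible). With the other OGT probe sets the difference was 1.46 (207564_x_at), 0.84 (212307_s_at) and 0.88 (207563_s_at), and it turned to -0.25 with 229787_s_at. With this OGA probe set (200899_s_at), a larger ratio of OGA to OGT in high glucose was thus seen with 4 of the 5 OGT probe sets. The 5 ratios share that numerator, so they are not separate observations. OGT 229787_s_at rose by 1.31 log2 units, more than OGA 200899_s_at (1.06) and 200898_s_at (0.93) but less than OGA 223494_at (1.54). The sign against 229787_s_at therefore depends on the OGA probe set taken.

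**Figure D3:**
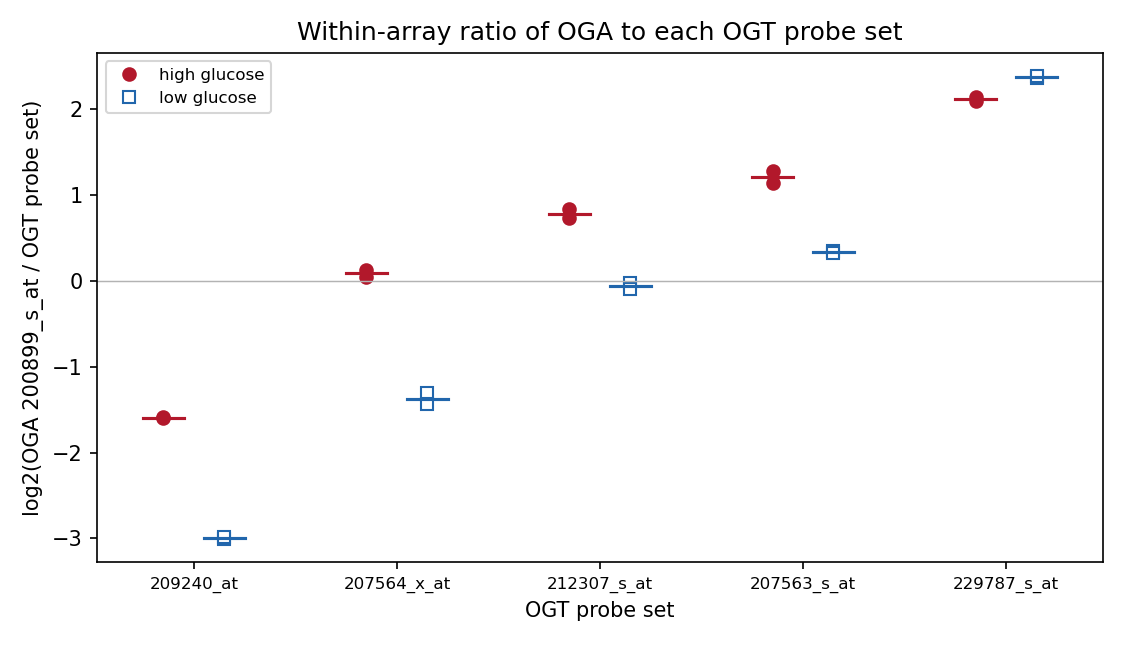
Within-array log2 ratio of OGA (200899_s_at) to each measured OGT probe set (x axis), with high glucose arrays as filled circles left of low glucose arrays as open squares, and bars at the group means. The high glucose arrays lie above the low glucose arrays for 4 OGT probe sets and below them for 229787_s_at; heights are not comparable between probe sets.

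Over the 4 arrays, the probe sets of other genes nearest in pattern to the brightest OGT probe set were those of BTG3 (distance 0.0062), VPS37C (0.014) and LOC728485 (0.015). Those nearest to the brightest OGA probe set were of POP5 (0.012), VCL (0.019) and ARHGEF7 (0.020). The measure is the Euclidean distance of log2 signals after subtracting each probe set's mean, and with 4 arrays in 2 groups it reads little beyond the group difference.

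For salvage and return of amino sugars, 1 of the 2 enzymes was lower in high glucose and the other was not called. NAGK, the kinase that recovers free GlcNAc, had 468 and 447 in high glucose, against 587 and 560 in low glucose. It fell by 0.33 ± 0.07 log2 units, 1.25-fold (adjusted p = 0.0075), and after median centring stood at -0.16 without passing (adjusted p = 0.16). GNPDA1, the deaminase that returns glucosamine-6-phosphate to glycolysis, had 964 and 850 in high glucose, against 958 and 1110 in low glucose. These groups overlapped, and its log2 difference of -0.19 ± 0.09 did not pass (adjusted p = 0.13). After median centring GNPDA1 stood at -0.02 (adjusted p = 0.91). Leaving out 1 array moved it to between -0.29 and -0.08: it passed without low glucose replicate 1 (-0.29, adjusted p = 0.035), and did not pass without high glucose replicate 1 (-0.28, adjusted p = 0.062), high glucose replicate 2 (-0.10, adjusted p = 0.48) or low glucose replicate 2 (-0.08, adjusted p = 0.51).

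Genes around the pathway were described by 6 lists, in each case by the brightest measured probe set. Of all 12242 measured genes, taken the same way, 23.8% were higher and 32.6% lower, and each list count below stands beside these shares. Of 7 genes that supply glucose or glutamine, 2 rose and 2 fell. SLC2A3, the glucose transporter GLUT3, rose 2.13-fold and GPI, which interconverts the phosphates of glucose and fructose, 1.57-fold. SLC1A5, a glutamine transporter, had 1368 and 1662 in high glucose, against 2868 and 2867 in low glucose, a 1.90-fold fall, and HK2, a hexokinase, fell 1.24-fold (adjusted p = 0.047). HK2 passed narrowly and did not pass after median centring (-0.14, adjusted p = 0.32) or without high glucose replicate 1 (-0.17, adjusted p = 0.26), low glucose replicate 1 (adjusted p = 0.090) or low glucose replicate 2 (adjusted p = 0.088). The list median was -0.06.

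Of 6 measured genes of amino sugar breakdown and lysosomal release, 4 fell and 0 rose, with a median of -0.43. NAGLU, a lysosomal N-acetylglucosaminidase, fell 1.82-fold, MANBA, the lysosomal beta-mannosidase, 1.71-fold, NPL, which cleaves sialic acid, 1.45-fold and HEXA, a hexosaminidase subunit, 1.26-fold. After median centring HEXA stood at -0.16 (adjusted p = 0.12) and NPL at -0.36 (adjusted p = 0.093), neither passing, and NPL did not pass without any one of the 4 arrays (adjusted p between 0.058 and 0.091). In sialic acid synthesis 3 of 5 fell and 1 rose, with a median of -0.47. NANS, the sialic acid synthase, fell 1.56-fold, SLC35A1, which carries CMP-sialic acid into the Golgi, 1.39-fold and NANP, the phosphatase that acts after NANS, 1.38-fold. CMAS, which activates sialic acid to its CMP form, rose 1.54-fold.

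Of 24 genes that use or transport UDP-GlcNAc in the secretory pathway, 4 rose, 4 fell and 16 did not pass, with a median of -0.09. SLC35D1, a nucleotide sugar transporter of the ER, rose 2.07-fold. RFNG, a fringe transferase acting on Notch, fell 1.89-fold, MGAT5, an N-glycan branching enzyme, 1.82-fold and MGAT4B, of the same kind, 1.56-fold. Among 12 partners and regulators of OGT, 3 rose and 5 fell. HCFC1, a chromatin cofactor cleaved by OGT, had 1039 and 1067 in high glucose, against 1942 and 1891 in low glucose, and fell 1.82-fold. KANSL3, a subunit of a histone acetyltransferase complex, fell 1.78-fold and TET3, a methylcytosine dioxygenase that binds OGT, 1.51-fold. CARM1, an arginine methyltransferase modified by OGT, rose 1.98-fold.

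The factors of the ER stress response in the last list were lower in high glucose in 4 of 4 genes, with a median of -1.26. Of all measured genes, 32.6% were lower. XBP1 is known in mouse heart to bind and induce the gene of the first pathway step, and ATF4 is known to induce GFPT1 in cells short of glucose or amino acids. XBP1 had 559 and 530 in high glucose, against 2452 and 2495 in low glucose, a 4.54-fold fall, and ERN1, the kinase and nuclease that splices its mRNA, fell 2.58-fold. ATF4 had 4165 and 4830 in high glucose, against 9778 and 10035 in low glucose, a 2.21-fold fall, and ATF6 fell 2.20-fold. GFPT1, UAP1L1, NAGK and the brightest OGT probe set lay on the same side as these factors, while GNPNAT1, UAP1 and OGA lay on the other. Whether the factors play a part in these differences was not tested.

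**Figure D4:**
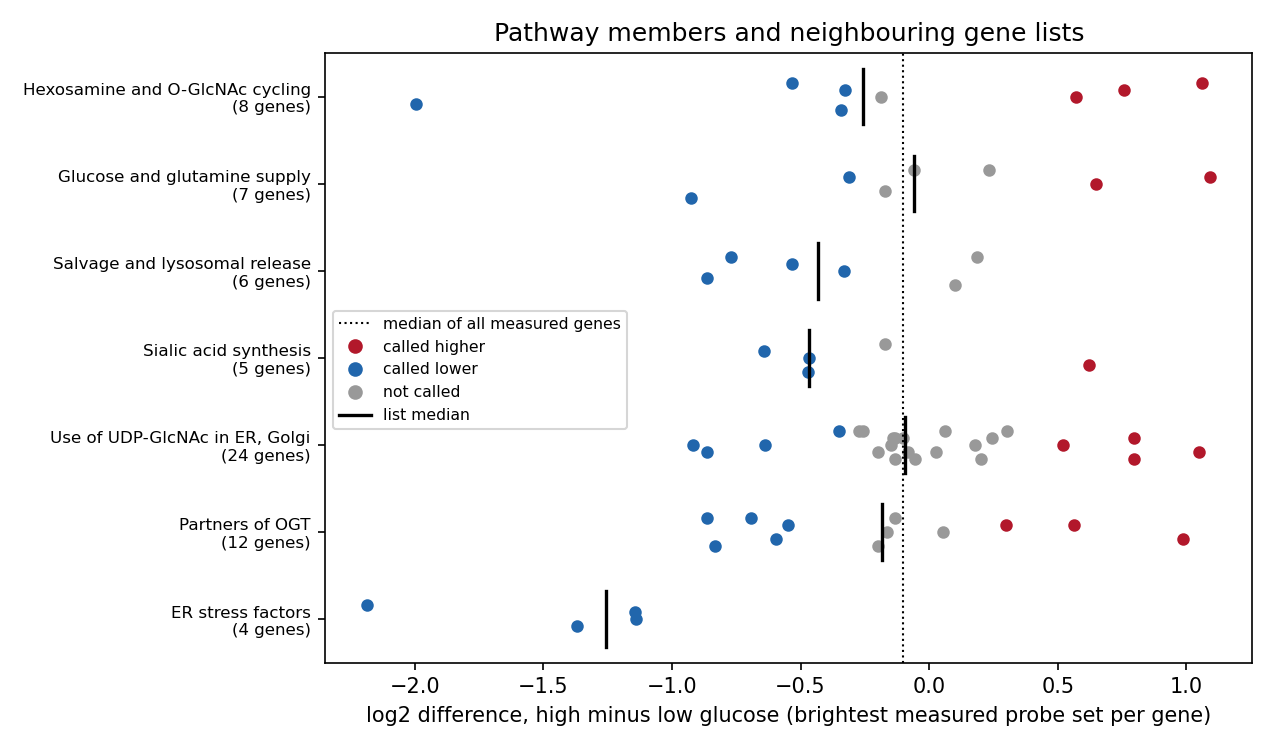
Log2 difference (x axis, high minus low glucose) of each measured gene by its brightest probe set, for the 8 pathway genes and 6 surrounding lists (y axis). Colours mark genes called higher, lower or not called, black bars are list medians, and the dotted line is the median of all measured genes at -0.10; the 4 ER stress factors all lie at -1.14 or below.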

How the data were processed

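Total RNA of HEK293 cells was hybridised as biotin-labelled cRNA to 4 one-colour Affymetrix arrays, per the labels' protocols. The signal intensities deposited by the authors are linear, 1 per probe set and array. The submitters' processing notes name GCOS, with other steps not given in the sources used here. The 2% trimmed mean was 200.02 on each array, so the values had already been scaled. The number of arrays limits the precision.

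Signals were log2-transformed, 62 control probe sets left out, and 27307 of 54613 probe sets kept at a mean signal of 32.9 or more. limma 3.58.1 in R 4.3.3 (lmFit, eBayes with an intensity trend) compared high with low glucose over all kept probe sets, with Benjamini-Hochberg adjustment, two-sided, threshold 0.05. Errors beside log2 differences are standard errors. The fit was tested on simulated data. Over all 54675 probe sets, controls included, the platform annotation named 1 gene for 41097, several for 1801 and none for 11777. By identifier, 41043 matched RefSeq (GRCh38.p14), which also gave the promoter windows.

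All probe sets of the genes were named, up to 4 genes with the smallest p from each surrounding list, and the 3 nearest in pattern to OGT and OGA. The genes, lists and tests were chosen with earlier results of these data known. Alternatives covered normalization, filter, pseudocount, trend, replicate block, probe set choice and left-out arrays. Same-numbered arrays did not deviate together (r = 0.0077 across probe sets, which are not independent).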

Additional observations from a re-analysis of the deposited data

How the results depend on the processing

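Over the alternatives run, between 6 and 8 probe sets of the genes were called higher, against 7 in the report, and 8 or 9 lower, against 8, except after median centring, where 5 were lower (GFPT1 and UAP1L1). Without 1 array the counts were 6 higher and 8 to 9 lower. Centring also moved the calls of all measured probe sets to 8619 higher and 5060 lower, against 6318 and 7441 as deposited. The replicate block gave 6 higher and 8 lower among the genes, with OGT 212307_s_at no longer passing (adjusted p = 0.063), and 6335 and 7507 overall; the numbers are not known to pair the arrays. The same probe set also missed the threshold with no filter (0.087) and no trend (0.10). OGT reversed to 0.19 with the mean of its probe sets. The OGA over OGT difference of 1.40 was 1.44 with quantile normalization, 1.37 with a pseudocount of 16, 1.39 with cyclic loess, 0.98 with mean probe sets and 1.39 to 1.41 without 1 array. With other OGT probe sets against the brightest OGA probe set, an alternative chosen after seeing the data, it was 1.46, 0.88, 0.84 and -0.25. The UAP1L1 over UAP1 difference lay between -2.57 and -2.49. Each of the 24 genes named from the surrounding lists kept its direction under 12 alternatives, applied to them after seeing the data, and all but HK2, NPL and HEXA stayed called; HK2 also missed the threshold with quantile normalization (0.084), cyclic loess (0.058), no filter (0.084) and no trend (0.12), and NPL with quantile normalization (0.050). The planned GFPT2 over GFPT1 ratio was not run, because GFPT2 was not analysed here. Probe sets below the filter limit what can be said of OGT 220594_at and of OGA 214972_at and 235868_at.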
